A study of Canis lupus familiaris with 109 samples.

Results

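Long unmethylated runs were stretches of at least 400 bp of dog DNA whose listed cytosines had a low mean methylation in whole blood. A run was a row of 10 or more listed positions on 1 chromosome with no gap over 100 bp between neighbours. Its level in a library was the mean methylation fraction of its positions, and a run was called unmethylated where the median of that mean over 95 libraries was under 0.1. By these rules 489 of 7274 runs were long unmethylated runs, and they held 23220 of the 304191 listed positions (7.63%). The 4694 shorter unmethylated runs, under 400 bp from first to last position, served as the comparison. The runs were chosen by these levels, so the low level of the runs is part of the definition and is described here without a test.

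Methylation was measured by bisulfite sequencing after capture of selected regions with Roche SeqCap Epi, in DNA of whole blood from domestic dogs. The labels put 94 samples in the main table, aged 0.134 to 14.5 years (median 6.37), of which 30 are female, 31 male and 33 of unstated sex. The main table holds 95 libraries, more than the labels account for, so the ages and sexes may not describe all of them. A repeat table belongs to 7 samples aged 0.384 to 15.5 years, and 8 samples of low coverage are in neither table. The row codes of the tables match no sample label, so no library has a known age, sex or dog, and values are given as the lowest, median and highest library without a test between groups. The breed of the dogs and the makeup of their white blood cells were not used here, and whole blood is a mixture of cell types whose shares can differ between dogs. Fractions were deposited without read counts, so that the depth behind each value is unknown.

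In vertebrate genomes most CpG cytosines carry a methyl group, placed and maintained by DNA methyltransferases. Dense clusters of CpGs, the CpG islands that lie at many gene starts, are an exception and usually stay free of methylation, and the TET enzymes oxidise methyl groups that are placed there. The DNA on either side of an island, called its shore, is where methylation commonly passes from low to high, and it varies more between tissues and individuals than the island itself. Genes and CpG islands near the runs are not named here, because no annotation of the files' genome build was used. Positions are on CanFam3.1, the dog build named in the submitters' processing notes, and are the first coordinate the table lists, which carries an uncertainty of 1 bp.

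Most long unmethylated runs were almost empty of methylation. Their levels ranged from 0.00128 to 0.0992 with a median of 0.00222, and the shorter unmethylated runs had a median of 0.00216. In 333 of the 489 long runs (68.1%) the level was under 0.005. A further 31 lay from 0.005 to 0.01, 30 from 0.01 to 0.02, 39 from 0.02 to 0.05 and 56 from 0.05 to 0.1. The share of runs at 0.02 or more was 19.4% of the long runs and 19.3% of the shorter ones. In the highest class, from 0.05 to 0.1, stood 11.5% of the long runs and 9.63% of the shorter ones.

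**Figure D1:**
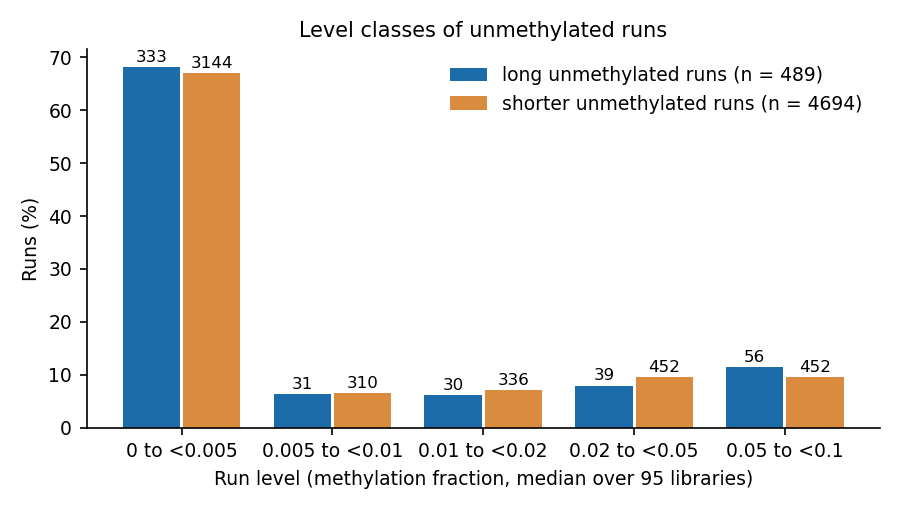
Share of long (blue, n = 489) and shorter (orange, n = 4694) unmethylated runs, in percent, in 5 classes of run level, with the number of runs above each bar. The class under 0.005 holds 68.1% of the long and 67% of the shorter runs.

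The longest member, chr12:434282-435446, spanned 1164 bp with 92 listed positions and had a level of 0.00217. It lay between 0 in the lowest and 0.00565 in the highest library, and none of its positions had a median over 0.1. The fourth longest, chr16:9418336-9419281 (945 bp, 104 positions), had a level of 0.00183, with the highest library at 0.00462. Both stretches were read as almost free of methylation from end to end in every one of the 95 libraries. The lowest levels of all were 0.00128 at chr26:6310124-6310653, 0.00135 at chr15:8965182-8965687 and 0.00135 at chr22:26935117-26935659.

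The runs with most listed positions were also low in 2 of 3 cases. At chr1:99454838-99455700, with 183 positions, the level was 0.00235 and the highest library stood at 0.00393. At chr18:49090482-49090968, with 132 positions, the level was 0.00167. Its highest library, L1_A7, stood at 0.0166, with the next at 0.00523, and L1_A7 is the library with the largest share of fractions that have more than 2 decimals, at 12.1% of its values in the long runs. Whether such fractions were measured or filled in is not stated. The third, chr1:116720507-116720982, with 112 positions, had a level of 0.0255 and a range of 0.00821 to 0.0590 over libraries.

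Across all members the span ran from 400 to 1164 bp with a median of 494 bp, and the number of positions ran from 10 to 183 with a median of 46. The median density was 8.49 listed positions per 100 bp in the long runs and 10.6 in the shorter ones. Unmethylated runs made up 489 of 633 long runs (77.3%) and 4694 of 6641 shorter runs (70.7%). The share did not follow length throughout, with 77.7% of runs under 100 bp and 67.5% of those from 200 to under 300 bp. Of the 144 long runs that were not members, 41 had a level from 0.1 to 0.2, 51 from 0.2 to 0.8 and 52 of 0.8 or more. Members were found on 37 of the 38 chromosomes in the table, with 33 on chromosome 1 and none on chromosome 38.

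At the boundaries the choice of members was a matter of small steps. The 3 members just inside 400 bp, chr5:8941928-8942328, chr8:3405914-3406314 and chr13:22543833-22544233, had levels of 0.00200, 0.00190 and 0.00178. The 3 runs just short of 400 bp had 0.00250, 0.00194 and 0.00206. The 3 members nearest to the upper boundary had 0.0992, 0.0990 and 0.0977, and the 3 long runs just over it, chr8:35680312-35680754, chr14:40321395-40321991 and chr24:1932494-1932958, had 0.101, 0.101 and 0.103.

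Residual methylation in the long runs was carried by few positions. Of the member positions, 21119 (91%) had a median of 0 over libraries. A median over 0.1 was found at 529 positions (2.28%) in 114 members, and a median over 0.5 at 54 positions (0.233%) in 27 members. In the shorter runs these shares were 1.96% and 0.0483%. The rule bears on this contrast, since fewer strongly methylated positions lift a run with few positions over the boundary of 0.1. Such a run is then not counted. The 1% of positions with the highest means over libraries held 30.6% of the summed level in the long runs and 19.6% in the shorter ones. By contrast, the top 10% of runs held 53.6% of the summed level of the long runs and 54% of that of the shorter ones.

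Positions over 0.5 sat mostly near a run's end. Within 50 bp of an end lay 43 of the 54 (79.6%), compared with 20.1% of all member positions. Of the 529 positions over 0.1, 38% lay that close to an end. They tended to stand beside each other, since 72.6% of the positions over 0.1 had a neighbouring position over 0.1 in the same member, and the median level of the 91 neighbours of positions over 0.5 was 0.54. No member had more than 4 positions over 0.5.

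A member with 4 positions over 0.5, the most of any, and 2 members with 3 differed in where these lay. Other members also had 3, among them chr31:11377731-11378314, where they were the last 3 positions. In chr27:18616750-18617556 (806 bp, 62 positions) the first 3 positions had medians of 0.90, 0.83 and 0.97. At 93, 112 and 147 bp the medians were 0.44, 0.45 and 0.21, and at 196 bp the median was 0.55. At 247 bp it was 0.08, and from 295 bp to the other end every position had a median of 0. The 50 bp at the ends of this run had a mean of 0.302, against 0.0440 in its centre, taken as all positions more than 100 bp from both ends. In chr1:108835768-108836178 the same 2 values were 0.126 and 0.00421, and in chr6:12434571-12435220 they were 0.0730 and 0.0543, with the higher positions not kept to the edge.

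The level of the long runs was highest at the end position and lower inside. The position at the end itself had a mean of 0.0362 in the median library (0.0323 to 0.0406 over 95 libraries). It was 0.0226 within 10 bp of the end, 0.0165 beyond 25 and up to 50 bp, and 0.0104 in both stretches beyond 100 and up to 150 bp and beyond 150 and up to 200 bp. Farther in it was 0.00903 beyond 200 and up to 300 bp, from 445 members, and 0.00632 beyond 300 bp, from the 94 members long enough to reach there. The end position was higher than the stretch beyond 200 and up to 300 bp in 95 of 95 libraries. In the shorter runs the end position stood at 0.0195 in the median library, and the stretch beyond 100 and up to 150 bp at 0.0111, close to that of the long runs. The end position was higher in the long than in the shorter runs in 95 of 95 libraries, with a difference of 0.0166 in the median library.

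Methylated ends were a small part of all ends in both kinds of run. Of the 978 ends of long runs, 45 (4.6%) had a mean of 0.1 or more over their outer 10 positions, against 135 ends (1.44%) of the shorter runs. The rule bears on these shares, since a shorter run with few positions and such an end passes the boundary of 0.1 and is then not counted. Among the other ends, chosen by values that include the end position, that position had a mean of 0.0172 in the 933 ends of long runs and 0.0163 in the 9253 ends of shorter runs. Its mean was higher in the long runs in 70 of 95 libraries. Its median was over 0.1 at 4.50% of these ends of long runs and 2.96% of those of shorter runs.

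**Figure D2:**
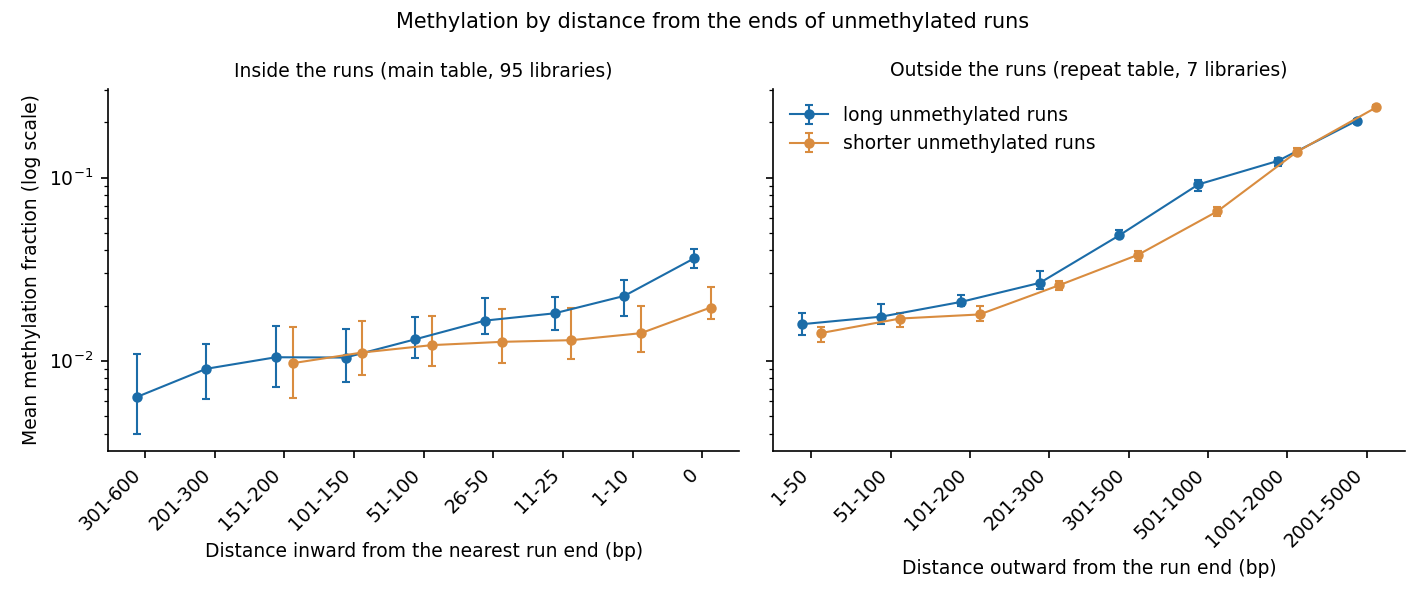
Mean methylation fraction (log scale) by distance in bp from the run end, inside the runs in the main table (left) and outside them in the repeat table (right), for long (blue) and shorter (orange) unmethylated runs. Points are the median library and bars run from the lowest to the highest library. Long runs stand at 0.0362 at the end position and at 0.00632 deepest inside, and their surroundings reach 0.205 beyond 2000 bp.

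Taken run by run, edge and centre differed by more than 0.01 in a minority of members, more often with the edge above. The edge, the outer 50 bp at both ends, had a mean of 0.0252 over the 489 members in the median library (0.0221 to 0.0306), and the centre had 0.0110 (0.00860 to 0.0160). The edge was above the centre in 95 of 95 libraries, by 0.0143 in the median library (0.0121 to 0.0167), while the median member had a difference of 0. The edge was above the centre by more than 0.01 in 91 members (18.6%), compared with 16.5% of all 2027 unmethylated runs long enough to have both an edge and a centre. It was below the centre by more than 0.01 in 27 members (5.52%), compared with 5.87% of all such runs. Both shares were near those background values, which include the members, and in 371 members edge and centre were within 0.01 of each other.

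The differences were unequal in size. The 49 members with the largest differences, picked by that value, summed to 96.8% of the net sum over all members, in which the negative differences count against the positive ones. In the 1538 shorter runs with both an edge and a centre, the edge had 0.0184, the centre 0.0132 and the difference was 0.00537 in the median library. A difference over 0.1 was found in 20 of the 489 long runs and 31 of the 1538 shorter ones. The rule bears on these contrasts too. A shorter run with few positions and a strongly methylated edge can pass the boundary of 0.1, and is then not counted. On the values as deposited, before those of 1.0 at otherwise unmethylated positions were set to 0.01, the edge was above the centre in 70 of 95 libraries only, by 0.0112 in the median library.

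Most members with a methylated edge were raised at 1 end. Of the 91, the end at the lower coordinate alone was above the centre by more than 0.01 in 44, the end at the higher coordinate alone in 41, and both ends in 6 (6.59%). Of the 243 shorter runs whose edge was above the centre by more than 0.01, both ends were above in 41 (16.9%). How often both ends would be raised if the ends were unlinked was not tested. In 34 of the 91 the edge was above the centre in each of the 95 libraries. In 64 of them the end position itself had a median over 0.1. From such an end, a median of 2 and at most 11 positions in an unbroken row were over 0.1, and the first position at or under 0.1 lay at a median of 66 bp and at most 247 bp from the end.

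The 5 members with the largest differences showed this step in full. At chr8:3349612-3350462 (850 bp, 47 positions) the edge stood at 0.480 and the centre at 0.00225. Its last 2 positions, 13 bp apart, had medians of 0.64 and 0.82, and the position 100 bp before them had 0. At chr31:11377731-11378314 the edge had 0.390 and the centre 0.00250, and the last 3 positions had medians of 0.54, 0.92 and 0.89. At chr30:766553-766967 the edge had 0.351 and the centre 0.00214, and this member came second of all by level, at 0.0990, through 4 positions over 0.1 among its 29.

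The remaining members of these 5, chr12:20513537-20513941 and chr2:57968554-57968971, had edges of 0.320 and 0.286 over centres of 0.00200 and 0.00229. Among the 5 longest members, 3 also had an edge above the centre. At chr12:2663559-2664548 (989 bp) the outer 50 bp at the higher coordinate lay 0.248 above the centre. At chr27:30153342-30154290 (948 bp) the lower end lay 0.116 above it, and at chr4:51280925-51281867 (942 bp) the higher end lay 0.0809 above it. The opposite end of chr12:2663559-2664548 lay 0.00600 below its centre.

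**Figure D3:**
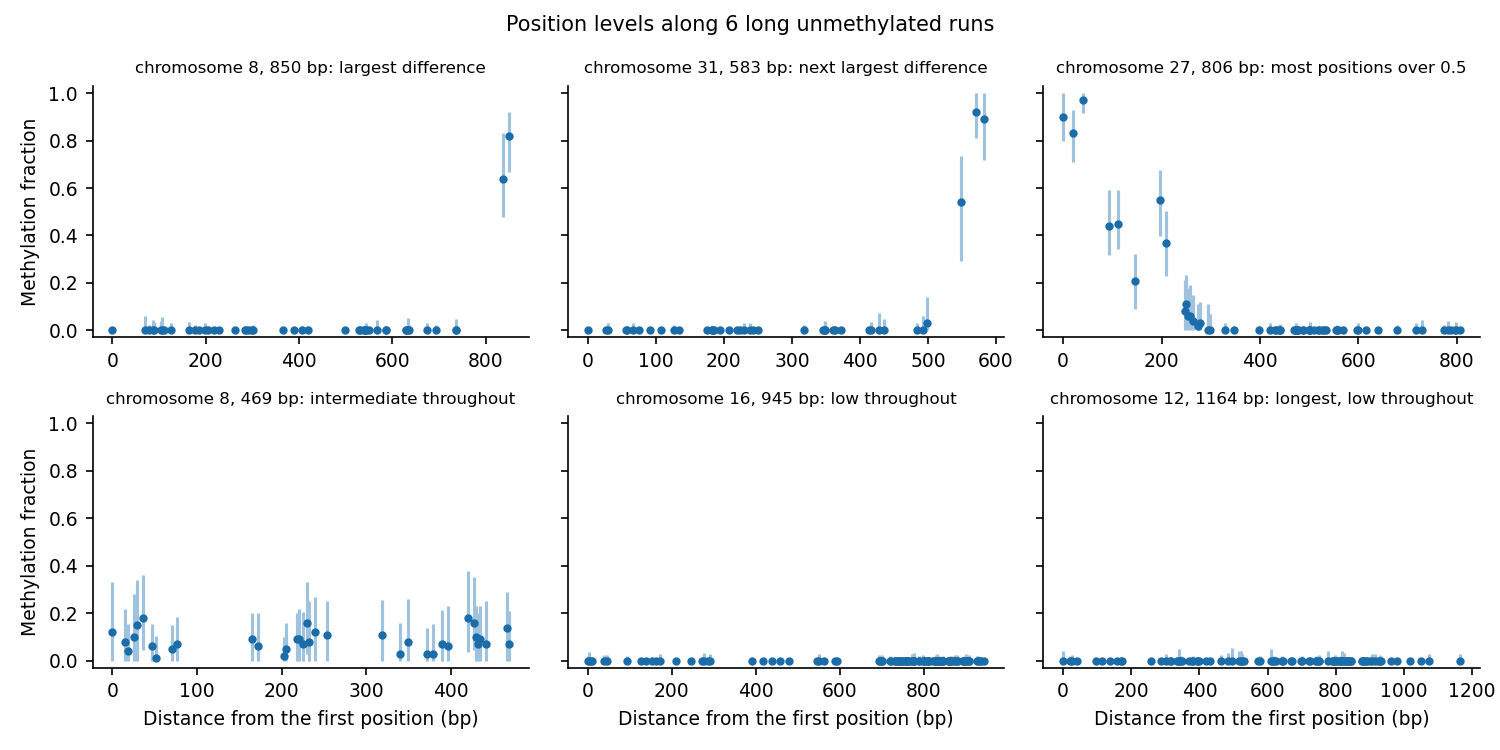
Methylation fraction of each listed position against its distance in bp from the first position, in 6 long unmethylated runs. Points are medians over 95 libraries and bars run from the 5th to the 95th percentile of libraries. The first 3 panels have methylated positions at 1 end, the fourth has intermediate levels throughout, and the fifth and sixth are at 0 along their length.

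Of the 95 members with a level of 0.02 or more, 57 had the edge above the centre by more than 0.01, 24 had the centre above the edge, and 14 had edge and centre within 0.01. The 5 members with the highest levels included 4 with the edge above and 1 with the centre above. The highest, chr29:14258749-14259262 (513 bp, 51 positions), had a level of 0.0992 from 17 positions over 0.1 and none over 0.5, with an edge of 0.113 and a centre of 0.0993. At chr8:15214887-15215303 the edge had 0.0890 and the centre 0.106, at chr22:45504986-45505398 they had 0.0858 and 0.0575, and at chr8:35565751-35566220 they had 0.117 and 0.0879. None of these 3 had a position over 0.5. In the order given, 11 of 26, 8 of 26 and 10 of 36 positions were over 0.1.

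The repeat table, whose 7 libraries the rule did not use, gave similar levels once its values of 1.0 were treated in the same way. Its 7 samples are not all independent of the main table: by their titles, 5 come from dogs that also have a main-table sample, and the other 2 are both captures of 1 further dog. Of the 488 members with positions there, 482 were under 0.1 and the highest stood at 0.106. Over the 21147 member positions in both tables the mean was 0.0134 in the median repeat library (0.0119 to 0.0145), and over 18219 positions inside the members that only the repeat table lists it was 0.0127 (0.0108 to 0.0141). As deposited, the shared positions had 0.0349 (0.0147 to 0.0588). The 56 members from 0.05 to 0.1 in the main table had a median of 0.0658 in the repeat table, and the 332 members under 0.005 a median of 0.00333. Across the 488 members the levels in the 2 tables had a Pearson's r of 0.937 and a Spearman's rho of 0.756. Over shared positions only, r was 0.985 and rho 0.787, and the levels differed by a median of 0.00158 and at most 0.0269. These correlations are over runs, which share libraries and capture design, and are a description.

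Strongly methylated positions of the members were listed less often in the repeat table. It holds 91.3% of the positions with a median of 0, 84.2% of those over 0.1 and up to 0.5, and 72.2% of those over 0.5 (39 of 54). Those 39 positions had a median of 0.65 in the repeat table and 0.65 in the main table, with a median absolute difference of 0.03 between the tables. The edge was above the centre in 7 of 7 repeat libraries, by 0.00996 in the median library (0.00859 to 0.0111), over 485 members. By more than 0.01 it was above in 70 of these (14.4%) and below in 27. In 1505 shorter runs the difference was 0.00355, and the limit that the rule sets on this contrast holds here too.

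**Figure D4:**
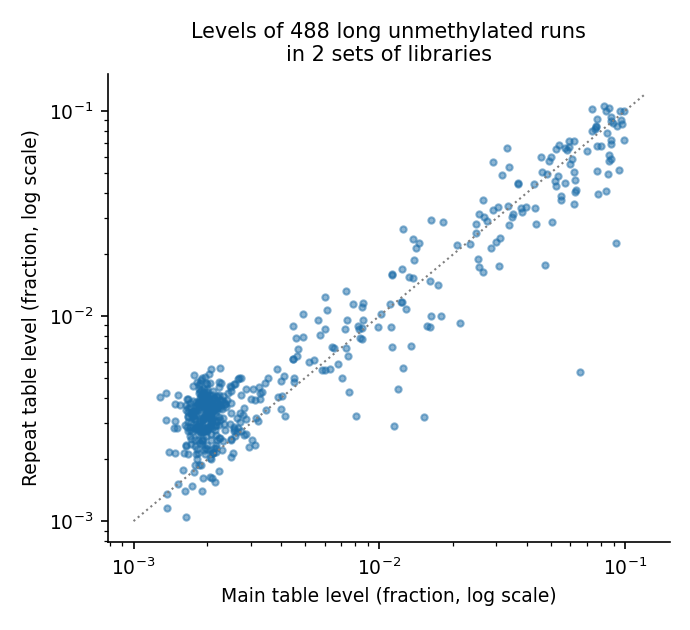
Level of 488 long unmethylated runs in the repeat table (median of 7 libraries, all its positions in the run) against the level in the main table (median of 95 libraries), both as methylation fraction on log axes, with the line of equality dotted. Members under 0.005 in the main table have a median of 0.00333 in the repeat table, and those from 0.05 to 0.1 have 0.0658.

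Outside the long runs, low methylation continued for some distance. The main table lists no position within 100 bp outside a run, by the definition of a run, so the repeat table was used there. In the median library it gave a mean of 0.0158 within 50 bp outside, 0.0209 beyond 100 and up to 200 bp, and 0.0483 beyond 300 and up to 500 bp. From there to 1000 bp the mean was 0.0917, and between 2000 and 5000 bp it was 0.205. The share of positions under 0.1 was 96.8% within 50 bp and 70.8% between 2000 and 5000 bp. The main table, with fewer listed positions beyond 100 bp, gave higher means there. It had 0.0533 beyond 100 and up to 200 bp, from 113 members, with 90.3% of positions under 0.1. Beyond 300 and up to 500 bp it had 0.059, and from there to 1000 bp 0.109. Of the 489 members, 438 had positions in the repeat table within 50 bp outside, and in the main table their listing ends at the run.

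Between long and shorter runs the surroundings differed by distance. In the repeat table the mean between 300 and 500 bp was 0.0483 around the long runs and 0.0379 around the shorter ones. Between 500 and 1000 bp it was 0.0917 and 0.0654. Between 1000 and 2000 bp the order was turned, with 0.123 around the long runs and 0.138 around the shorter ones. Between 2000 and 5000 bp the means were 0.205 and 0.241. The libraries' ranges did not overlap at any of these distances. All libraries read the same positions, so these ranges do not measure the spread between runs. Between 100 and 500 bp the median over runs was 0.00452 for the long and 0.00446 for the shorter ones. Counted by run, 351 of 393 long runs with at least 3 repeat-table positions between 100 and 500 bp (89.3%) had a mean under 0.1 there, against 90.6% of 3991 shorter runs. Between 500 and 2000 bp the mean was over 0.5 beside 49 of 300 long runs (16.3%) and 12.8% of 3527 shorter runs.

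Listed positions around the runs come from captured DNA and mostly belong to other runs. In the main table the mean between 100 and 1000 bp outside the long runs was 0.0753 over 3692 positions, and 0.138 over the 1195 of these that belong to no other run. Another run lay within 1000 bp of 141 members, and the nearest one was itself unmethylated in 127 and over 0.5 in 3. The median distance to the nearest other run was 19103 bp.

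In members whose edge stood above the centre at 1 end only, the DNA beyond that end was the methylated side in the repeat libraries. Between 200 and 500 bp beyond the higher end the median over 26 members was 0.539 and 20 were over 0.1. Beyond the other end of such members it was 0.00237 over 52, of which 3 were over 0.1. Within 200 bp the medians were 0.135 beyond the higher end (43 members) and 0.00208 beyond the other end (71 members). Between 500 and 2000 bp they were 0.221 (29 members) and 0.0600 (47 members). The 2 sides differ in how many members have listed positions, and members without them could not be counted.

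Mean levels of the long runs varied little from library to library. The mean over the 489 members was 0.0145 in the median library, 0.0120 in the lowest and 0.0198 in the highest, L2_A13, with the next at 0.0170. The shorter runs had 0.0144, 0.0114 and 0.0208, with L2_A13 again highest. The long runs were above the shorter ones in 60 libraries and below them in 35, by 0.000127 in the median library (−0.00128 to 0.00174 over libraries). The order of the 2 kinds depended on the weighting. With every position given the same weight the difference was −0.000327, with the long runs above in 23 of 95 libraries, and against shorter runs matched on density it was −0.00184.

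Values of exactly 1.0 at otherwise unmethylated positions made up 1.94% of all values in the long runs and were set to 0.01 before any mean was taken. No value in the long runs was written as 0.01, while 2.4% were written as 0.02, and whether the values of 1.0 stand for 0.01 is not stated. Per library they made up 0.4% in the median and 13.3% in L4_A7. As deposited, the mean over all member positions was 0.0165 in the median library and 0.145 in L4_A7. It weights every position alike, so it is not directly comparable with the mean over the 489 members given above. Before this change, 1.32% of values at the end position and 1.14% of those within 10 bp of it were 1.0, against 2.14% beyond 200 and up to 300 bp, so that the change acts more on the centre than on the edge.

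Few members had libraries that stood far from the rest. The SD of a run's mean over libraries had a median of 0.00194 in the long runs and 0.00350 in the shorter ones, which have fewer positions. All 95 libraries were under 0.1 in 437 long runs (89.4%) and in 3941 shorter ones (84%). A library more than 0.1 above the run's median was found in 9 long runs (1.84%) and in 344 shorter ones (7.33%). In 6 of those 9 members it was 1 library alone. Without the values of 1.0 that the rule leaves at positions with a median from 0.05 to 0.5, it was found in 8 long runs and in 268 shorter ones (5.71%).

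The member with the widest spread, chr15:14870671-14871096 (425 bp, 20 positions), had a level of 0.0115, and its libraries spanned 0 to 0.394. The spread was widest in its first 94 bp, where the mean over 7 positions was between 0 and 0.929. It went on over the next 4 positions, from 128 bp, whose medians were 0 and whose highest libraries had 0.44, 0.27, 0.16 and 0.57. The mean over its last 9 positions, from 263 bp on, stayed at or under 0.0289 in all 95 libraries. The single position at 425 bp reached 0.16 in its highest library. Among the repeat libraries, CHYB6_CF_10_S14 alone stood out, with 0.687 over that first stretch and the next at 0.0450.

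The second, chr6:44477398-44478071 (673 bp, 61 positions), had a level of 0.0626, a lowest library of 0.00770 and a highest of 0.38, with the next at 0.189. Its first 18 positions, up to 257 bp, had 0.207 in the median library, 0.0206 in the lowest and 0.623 in the highest. Over the rest of the run, 43 positions from 270 to 673 bp, the median library had 0.00372. There the highest library, SCE_CF_Pilot_8_S8, had 0.338 and the next had 0.0147. In the repeat table CHYB6_CF_8_S15, whose code has the same number, had 0.301 over these positions and the next library 0.0127. The titles name 5 dogs with a sample in each table, and 5 numbers occur in codes of both tables, but no label ties a code to a dog.

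The third, chr8:34476176-34476630 (454 bp, 36 positions), had a level of 0.0878, and its libraries spanned 0.0172 to 0.261 without a gap as wide. The fourth, chr22:49958934-49959502 (568 bp, 29 positions), had a level of 0.0797 and a highest library of 0.240, L8_A3. In that library 6 of the values were exactly 1.0 at positions whose medians were 0.05 or more, which the rule leaves in place. Without them L8_A3 had 0.0413 and the highest library of the run had 0.113. The run's rank by SD over libraries was then 23. The fifth, chr8:35565751-35566220, had a level of 0.0953, and its libraries spanned 0.0483 to 0.179. The other 4 highest values contained no such 1.0.

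**Figure D5:**
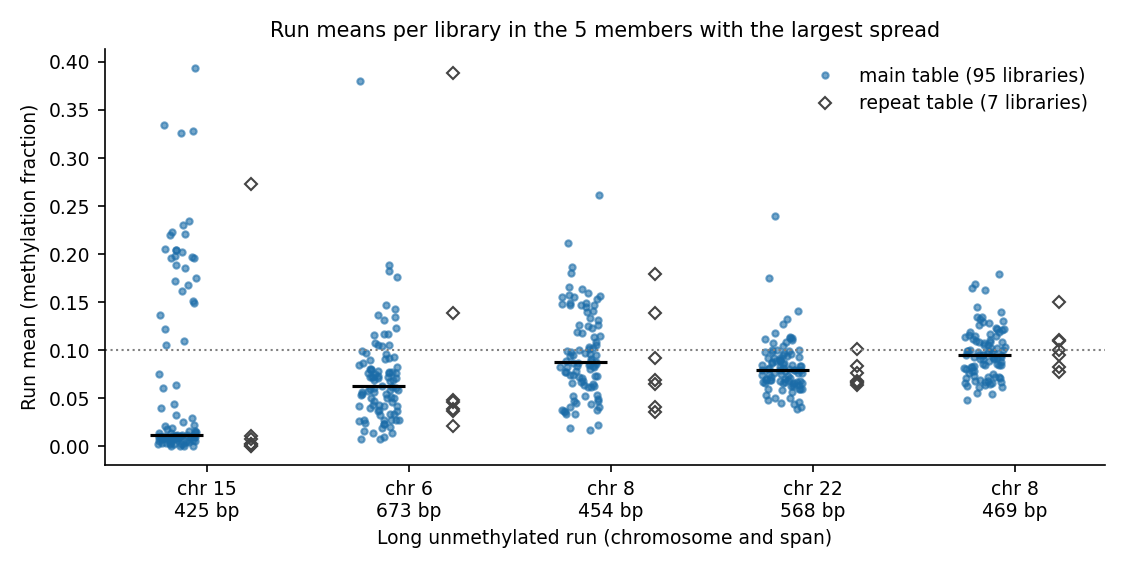
Run mean, as methylation fraction, of each library in the 5 members with the largest SD over libraries: 95 main-table libraries as filled points with their median as a line, and 7 repeat-table libraries as open diamonds. The dotted line is the boundary of 0.1. The highest point on chromosome 22, at 0.240, contains 6 values of 1.0 and is 0.0413 without them.

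The numbers that occur in codes of both tables are 5, 6, 7, 8 and 10. In these 5 main-table libraries a member was more than 0.05 above its median 10 times. In the repeat library of the same number the member was above its median in all 10 and more than 0.05 above it in 5. In the repeat libraries of other numbers the same members were more than 0.05 above their median in 3 of 60 cases. They were above it in 20 of 60. That count is fixed by taking the median of 7 libraries once the library of the same number is above it, so it is no baseline. The cases were chosen for being high in the main table, and the comparison is a description. At chr15:14870671-14871096 number 10 had 0.22 in its main library and 0.273 in its repeat library, and at chr6:44477398-44478071 number 8 had 0.38 and 0.389.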

How the data were processed

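Dog whole-blood DNA was profiled by bisulfite sequencing of captured regions. The authors deposited methylation fractions per position and library, without read counts. Trim Galore, Bismark 0.14.3 and Bowtie2 2.1.0 are the tools, and CanFam3.1 the build, in the submitters' processing notes. Which step each served is not given in the sources used here. Of 3 deposited tables, the one mapped to human probes was not used. Where a position's median was under 0.05, its values within 1e-06 of 1.0 were replaced by 0.01, in the repeat table by the main table's median where it lists the position. Runs, edges (outer 50 bp), centres (more than 100 bp from both ends) and flanks were computed with Python 3.11.15 and NumPy 2.4.6, and checked on simulated data; SciPy 1.17.1 and Matplotlib 3.10.9 served for rank correlations and figures. Run means were rounded to 9 decimals. The boundaries of each run are the positions the main table lists, so gaps in capture or coverage can end a run.

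The members and the lists of named runs were chosen with earlier results of these data known. Named were the 5 longest members, the 3 with most positions, and the 5 highest and 3 lowest. Others were the 5 with the largest SD over libraries, the 5 with the largest edge minus centre and the 3 nearest to each boundary. A further 3 were picked for most positions over 0.5, where other members tied at 3. Library rows match no label, so no test between groups was run and no library was tied to a dog. Sequences are not shown. Alternatives changed the gap, the boundaries, the treatment of 1.0 and of fractions with more than 2 decimals, the averaging, the edge, the flank and the libraries included.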

Additional observations from a re-analysis of the deposited data

How the results depend on the processing

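Of 88 alternatives over 7 results, 53 stayed within the spread over libraries (or within 1.5 times, for the number of runs), 31 moved by more, and 4 turned the sign. With gaps of up to 50 bp there were 162 long unmethylated runs, edge minus centre was 0.00747, the flanks had 0.0610, the share of positions over 0.1 was 1.46%, and long minus shorter was −0.00378. With gaps of up to 200 bp there were 904 runs, with 0.0173 for edge minus centre, 0.0967 for the flanks and 0.00191 for long minus shorter. On the values as deposited the median level was 0.00333, edge minus centre 0.0112, long minus shorter 0.000943 and the repeat libraries had 0.0349. Leaving out the values of 1.0 gave flanks of 0.0722, and the mean over libraries gave 0.000781 for long minus shorter. A boundary of 0.05 gave 0.00795 for edge minus centre, 0.0610 for the flanks, 0.605% of positions over 0.1 and −0.00114 for long minus shorter. A boundary of 0.2 gave 0.0174, 0.0865 and 5.36% for the first 3 of these. Counting runs as long from 300 bp gave 1061 runs, an edge minus centre of 0.0111 and a long minus shorter of 0.000805. Counting them from 500 bp gave 234 runs, an edge minus centre of 0.0177 and flanks of 0.0693. Edge minus centre was 0.0128 over the 245 members with no listed position within 500 bp outside. Flanks had 0.138 over positions in no other run and 0.0540 from the repeat table. Long minus shorter was −0.00184 against shorter runs matched on density. Alternatives chosen after seeing the data gave −0.000327 for long minus shorter with every position weighted alike, 0.00996 for edge minus centre from the repeat table and 0.00128 without the 10% of members with the largest difference. Another added alternative, in which the values of 1.0 at positions with a median from 0.05 to 0.5 were left out, moved none of the 6 results it was run for. The cause of these shifts was not tested.

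Read depth is unknown, so the counting error of a fraction cannot be given. Most values are rounded to 2 decimals, and a level under 0.005 is therefore a mean of zeros and a few values of 0.01 or more. Values of 1.0 at unmethylated positions, where no value is written as 0.01, were set to 0.01 and in part remain. Whether they stand for 0.01, and whether fractions with more than 2 decimals were filled in, is not stated.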

Other observations

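In the first 94 bp of chr15:14870671-14871096 the 95 main-table libraries were spread widely. The mean over its 7 positions was under 0.1 in 61 libraries, from 0.1 to under 0.3 in 8, from 0.3 to under 0.7 in 22 (highest 0.586), and 0.7 or more in 4 (highest 0.929). In the repeat table the 7 libraries had a median of 0.00833 there and a highest value of 0.687. The mean over the last 9 positions of the same member was at or under 0.0289 in all 95 libraries.

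At chr6:44477398-44478071 the mean over the 43 positions from 270 bp to the end was under 0.1 in 94 libraries and 0.338 in 1. The mean over the 18 positions at the other end, up to 257 bp, reached 0.623. It was under 0.1 in 18 libraries, from 0.1 to under 0.3 in 55 and from 0.3 to under 0.7 in 22. No library was tied to a dog, an age or a sex, and no relation to these was tested.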
